A study of Mus musculus with 28 samples.

Results

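The colony-stimulating factors and their receptors were followed in microglia sorted from 28 single mouse retinas. The family was taken by gene symbol and comprised 8 of the 40021 genes in the deposited table. These were the ligands Csf1, Csf3 and Il34, and the receptor genes Csf1r, Csf2ra, Csf2rb, Csf2rb2 and Csf3r. The rule that chose them names symbols and uses no measured value, but the family was picked with earlier results of these data known. Of the 8, Csf1, Csf1r, Csf2ra, Csf2rb, Csf2rb2 and Csf3r were at 1 RPKM or more in 5 or more retinas and entered the test across genes, whereas Csf3 and Il34 did not. RPKM is the number of reads assigned to a gene per kilobase of transcript, scaled to the size of the library, so levels of different genes are compared here per length.

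The CSF1 receptor is a tyrosine kinase on the surface of microglia and other macrophages, which depend on its signal for survival. It has 2 ligands, CSF1 and interleukin-34, and in the nervous system interleukin-34 is made mainly by neurons. The receptor for GM-CSF, the product of Csf2, pairs an alpha chain encoded by Csf2ra with a signalling beta chain encoded by Csf2rb, and acts through JAK2 and STAT5. The mouse carries a second beta chain gene, Csf2rb2, whose protein serves the interleukin-3 receptor. The G-CSF receptor, encoded by Csf3r, binds the product of Csf3 and is best known from neutrophils.

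All retinas came from male heterozygotes of the strain Cx3cr1CreER:R26-tdTomato (C57BL/6), in which a tamoxifen-dependent Cre recombinase under the control of Cx3cr1 switches on the red fluorescent protein tdTomato. Per the methods of the study, every mouse had received tamoxifen on the eye some weeks earlier, and the sorted cells were the live cells with high tdTomato (tdTomatohi DRAQ7-). Endotoxin-induced uveitis (EIU) was started by injecting lipopolysaccharide (LPS) into the vitreous, and the groups comprised 10 naïve retinas without LPS, 6 retinas taken 4 h after it, 5 taken after 18 h and 7 after 2 weeks. The labels place 6, 3, 4 and 4 of these retinas in experiment 1 and 4, 3, 1 and 3 in experiment 2, and do not tie eyes to animals, so that p-values measure the spread between retinas. All groups, naïve retinas included, share these alleles and the tamoxifen, so no retina stands for microglia of unmodified mice. No group was injected with vehicle alone. In differences from naïve retinas, LPS and the injection with its anaesthesia therefore cannot be told apart.

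The deposited table gave between 7510000 and 19700000 alignments per retina, and between 6552 and 11825 genes had an RPKM of at least 1. In 4 retinas, naïve 3 and 4, 18 h 4 and 2 weeks 1, fewer than 8000 genes did. The labelled cell type was visible in every group: all 10 microglial markers were above 0, and their summed RPKM ranged from 6998 to 13700 in the naïve group, from 1823 to 6860 in the 4 h group, from 1724 to 5475 in the 18 h group and from 7348 to 13900 in the 2-week group. Of these 10 markers, 5 fell at 4 h and 7 at 18 h, and none was called at 2 weeks. Summed markers of monocytes (8 genes) ranged between 0.0632 and 33.0 RPKM over all retinas, but single markers moved in opposite directions within that sum. The median of F13a1 fell from 5.69 RPKM in naïve retinas to 0.328 RPKM at 18 h. That of Plac8 rose from 0.108 to 6.63 RPKM, and its highest value at 2 weeks was 26.6 RPKM. For Ly6c2, 2 of 5 retinas at 18 h reached 1 RPKM, with a top value of 4.68 against 0.0279 RPKM without LPS. The source of these transcripts was not tested. Summed markers of endothelium (7 genes) lay between 0.174 and 4.11 RPKM over all retinas. Rod photoreceptor markers (6 genes) were present in every retina, between 213 and 4741 RPKM. A fall in a sorted pool of cells cannot tell fewer microglia in the pool from less RNA of a gene per cell.

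Among the 6 tested members, the calls against naïve retinas fell on 1 ligand and 1 receptor. Csf1 rose at 4 h and was back at the naïve range at 18 h. Csf1r fell at 18 h and was back at the naïve range at 2 weeks. The other tested members gave no call, and Csf3 and Il34, below the filter, could not be called. A call required a change of 2-fold or more with an adjusted p no higher than 0.05 in limma, fitted on log2(RPKM + 1) over 13164 genes. Against naïve retinas, 1 of 6 tested members was called at 4 h, where 8.08% of all genes were called (3.68% higher and 4.39% lower), 1 of 6 at 18 h, where 4.69% were (2.84% higher and 1.85% lower), and 0 of 6 at 2 weeks, where 0.0076% were. With 6 members tested, 1 call at a time point is not read as a result about the family. At 2 weeks all 6 members had a limma adjusted p of 1 and 0 of 6 had an unadjusted p under 0.05, which 378 of the 13164 genes had.

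**Figure D1:**
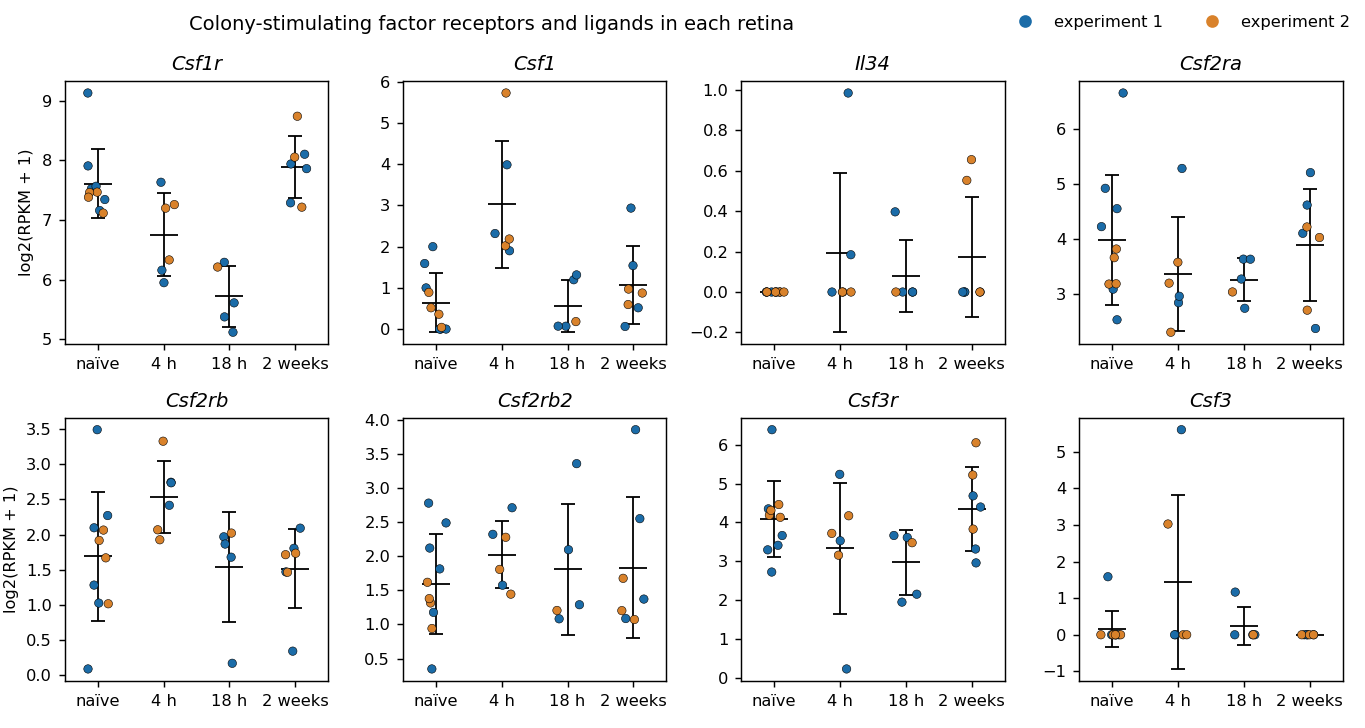
Each point is 1 retina, plotted as log2(RPKM + 1) with its own vertical scale for each gene, by group on the horizontal axis and coloured by experiment. Bars show the mean and SD of each group. The 5 Csf1r values at 18 h, from 33.75 to 77.27 RPKM, lie below every naïve and every 2-week value. Of all genes tested, 1.3% lay below every naïve retina in this way, and the share against 2 weeks was not counted. Csf1 at 4 h reaches 52.07 RPKM.

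**Figure D2:**
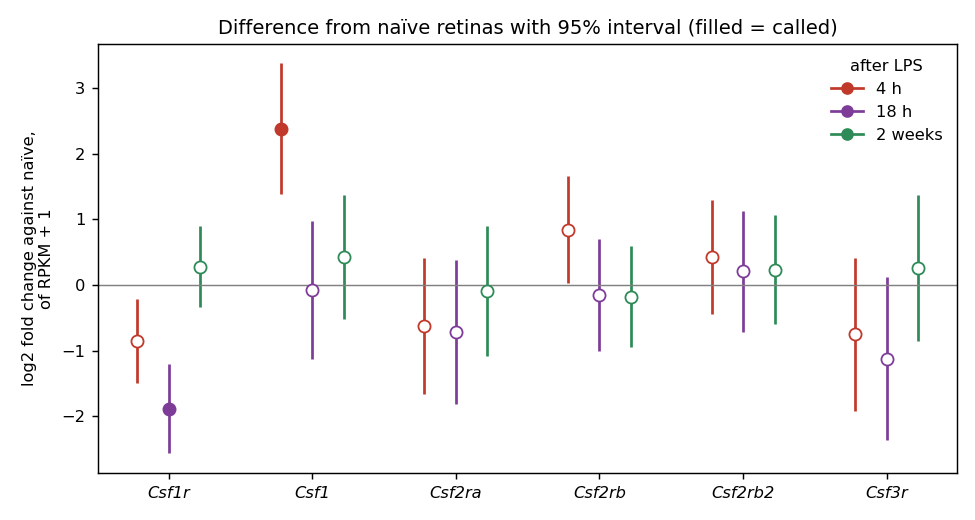
Log2 fold change of RPKM + 1 against naïve retinas for the 6 tested members at each time point after LPS, from limma, with 95% intervals as lines. Filled points mark calls, which are Csf1 at 4 h (2.38) and Csf1r at 18 h (-1.88).

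Csf1 (ENSMUSG00000014599, GRCm38 chr3:107741048-107760469, minus strand) encodes the ligand that CSF1R shares with interleukin-34. In naïve retinas it was barely detected: 3 of 10 were at 0, the median was 0.357 RPKM and the highest 3.001 RPKM. At 4 h the 6 retinas measured 14.86, 3.989, 2.734, 3.058, 52.07 and 3.550 RPKM. Of these, 5 lay above every naïve retina, and the exception at 2.734 RPKM lay below a single naïve retina. The mean was 13.4 ± 19.5 RPKM (SD, n = 6) at 4 h and 0.761 ± 1.01 RPKM (SD, n = 10) in naïve retinas. The rise was 2.38 on the log2 scale (SE 0.49, limma adjusted p = 0.0011), or 5.22-fold on RPKM + 1, a scale that understates the change of a low gene.

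At 18 h Csf1 had returned to low values, namely 0.049, 1.29, 1.49, 0.050 and 0.134 RPKM. None of these 5 retinas reached the lowest 4 h retina, and the share of all genes with such a separation was not counted. Against 4 h Csf1 fell by 2.46 on the log2 scale (SE 0.57, limma adjusted p = 0.0068). That comparison called 5.42% of all genes (2.92% higher and 2.51% lower) and 1 of 6 members. Against naïve retinas the difference at 18 h was -0.07 (SE 0.51, limma adjusted p = 0.96). At 2 weeks the 7 retinas ranged from 0.0449 to 6.66 RPKM with a median of 0.834 RPKM, and only the highest lay above all naïve retinas. The rise at 4 h was present in both experiments, with means of 1.00 and 7.20 RPKM in naïve and 4 h retinas of experiment 1 and of 0.399 and 19.6 RPKM in experiment 2. The last mean rested on the retina at 52.07 RPKM, and the median of those 3 retinas was 3.55 RPKM. In experiment 1 alone, with 3 retinas at 4 h, the difference was 1.97 and missed the threshold (limma adjusted p = 0.15).

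Csf1 is shown with the sequence before its transcription start, since it is the ligand that was called at 4 h. The 250 bases upstream of the gene, at chr3:107760470-107760719 on the minus strand (RefSeq, GRCm38.p6), read 5′ to 3′ as follows, with a match to the NF-kappa B consensus in capitals.
Csf1 promoter: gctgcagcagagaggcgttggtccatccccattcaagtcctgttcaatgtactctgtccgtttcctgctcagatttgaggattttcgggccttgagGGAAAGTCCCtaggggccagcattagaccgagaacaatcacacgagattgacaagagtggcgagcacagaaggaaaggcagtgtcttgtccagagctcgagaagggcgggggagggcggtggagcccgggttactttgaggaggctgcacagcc
The match reads GGGACTTTCC on the opposite strand and lies 154 to 145 bases before the start. A match on either strand stood in the same window of 7.25% of 32851 mouse promoters. Promoters of 4 members were matched by symbol, those of Csf1, Csf2ra, Csf2rb2 and Csf3r, and that of Csf3r held a match too, GGGACCTTCC, at 129 to 120 bases. The letters GAGGAA, the core bound by the myeloid factor PU.1, stood on either strand in 23.3% of all these promoters and in those of Csf2ra, Csf2rb2 and Csf3r. These matches describe letters in the windows and do not show binding. Promoters of Csf1r, Csf2rb, Csf3 and Il34 were not analysed here.

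Il34 (ENSMUSG00000031750, chr8:110741829-110805924, minus strand), the other ligand of CSF1R, was at 0 in all 10 naïve retinas. At 4 h it was listed at 0.980 and 0.137 RPKM in 2 retinas and at 0 in the other 4. At 18 h 1 of 5 retinas had 0.317 RPKM, and at 2 weeks 2 of 7 had 0.467 and 0.575 RPKM. Transcripts of neurons were present in all groups. The summed RPKM of 8 neuronal markers ranged from 37.2 to 241.9 in naïve retinas and from 58.4 to 199.5 at 4 h. It ranged from 15.8 to 95.5 at 18 h and from 65.7 to 220.1 at 2 weeks. In the retinas with Il34 above 0 it was 135.6 and 94.85 at 4 h (replicates 1 and 3) and 88.87 at 18 h (replicate 3). At 2 weeks it was 215.7 and 220.1 in those retinas (replicates 5 and 6). The part of neuronal transcripts in the values of Il34 was not tested. For a transcript of its length 1 read was worth between 0.0283 and 0.0741 RPKM across these depths. Exact two-sided permutation tests of log2(RPKM + 1) against naïve retinas gave p = 0.25 at 4 h, 0.67 at 18 h and 0.31 at 2 weeks before any adjustment for the 6 tests on Il34 and Csf3. With so few values above 0 these are the smallest p the tests could give, so they could not pass and do not show that the groups were alike.

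Csf3 (ENSMUSG00000038067, chr11:98701263-98703629, plus strand), which encodes G-CSF, appeared in few retinas and at very different levels. It measured 47.7 and 7.15 RPKM in 2 of the 6 retinas at 4 h, 1 from each experiment, and 0 in the other 4. In naïve retinas 9 of 10 were at 0 and 1 had 2.003 RPKM, 1 of 5 retinas at 18 h had 1.24 RPKM, and all 7 at 2 weeks were at 0. The mean log2 difference was 1.28 at 4 h (exact two-sided permutation test, p = 0.25), and p was 1 at both later time points. With 3 values above 0 among the 16 retinas compared at 4 h, no arrangement could give a p below 0.0714, so this test could not pass either, and the later time points allowed no p below 0.190. A fit that also kept low genes gave the same difference for Csf3 with a limma adjusted p of 0.44. The 4 h retinas with Csf3 were also those with the highest Csf1, replicates 1 and 5.

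The third factor of the group, GM-CSF, is encoded by Csf2, which was named after its values were seen. Csf2 was at 0 in all naïve and 2-week retinas and measured 0.324 RPKM in 1 of 6 retinas at 4 h. At 18 h it measured 9.54, 1.03 and 0.885 RPKM in 3 of 5 retinas and 0 in the other 2. Lymphocyte transcripts moved with that time point: the summed RPKM of 8 lymphocyte markers was 8.53, 43.0, 13.1, 96.4 and 12.1 in 18 h replicates 1 to 5, against at most 0.548 in naïve retinas, and 6 of the 8 markers were above 0. Most of that sum was Nkg7, a granule gene of cytotoxic cells, from 5.77 to 86.4 RPKM at 18 h and 0 in all naïve retinas. In 18 h replicates 1 to 5 Csf2 measured 0, 9.54, 1.03, 0 and 0.885 RPKM. Summed neutrophil markers were 1.08, 12.7, 17.1, 0 and 0.885 RPKM in the same order. Replicate 4, with the highest lymphocyte sum and no Csf2, had only 6969 genes at 1 RPKM or more. The part of lymphocyte or neutrophil transcripts in the values of Csf2 was not tested.

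Csf1r (ENSMUSG00000024621, chr18:61100598-61132149, plus strand) was the most highly expressed member in every group. In naïve retinas it ranged from 137.6 to 558.1 RPKM with a median of 175.4 RPKM, and its mean exceeded that of 98.4% of the genes tested. At 4 h the retinas measured 197.3, 60.8, 70.4, 145.8, 79.5 and 152.0 RPKM, and 3 of 6 lay below all naïve retinas. The difference of -0.85 on the log2 scale (95% interval -1.49 to -0.21) did not pass after adjustment (limma adjusted p = 0.096). It did pass at -1.13 when all retinas were scaled to the same summed RPKM (limma adjusted p = 0.025), so the 4 h value of Csf1r depended on the scaling.

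At 18 h Csf1r measured 77.3, 33.8, 47.9, 40.5 and 73.1 RPKM, and all 5 retinas lay below every naïve retina. A complete separation downwards from naïve retinas was seen for 1.3% of all genes at 18 h. The mean fell from 213 ± 125 RPKM (SD, n = 10) to 54.5 ± 19.6 RPKM (SD, n = 5), a fall of 1.88 on the log2 scale (SE 0.33, limma adjusted p = 4.7e-04), or 3.69-fold lower. At this level Csf1r still exceeded 91.2% of the genes tested. Within experiment 1 the means were 245 and 49.9 RPKM. The single 18 h retina of experiment 2 had 73.1 RPKM against a mean of 164 RPKM in 4 naïve retinas, and with that retina alone the test was not passed (-1.14, limma adjusted p = 0.32).

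At 2 weeks Csf1r measured between 147.5 and 425.8 RPKM with a median of 244.2 RPKM, inside the naïve range in all 7 retinas. Against 18 h it rose by 2.16 on the log2 scale (SE 0.36, limma adjusted p = 2.4e-04). That comparison called 2.65% of all genes (1.1% higher) and 1 of 6 members. The 2 groups did not overlap, but the share of all genes without overlap was not counted for this comparison. Against naïve retinas the difference was 0.28 with a 95% interval from -0.33 to 0.89. The microglial markers moved alongside, with a median log2 difference from naïve of -1.41 (4 h), -1.50 (18 h) and 0.16 (2 weeks), and their part in the values of Csf1r was not tested. The 3′ end of Csf1r overlaps that of Hmgxb3 on the other strand, and the library kit does not mark strand, so reads there cannot be told apart.

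Csf2ra (ENSMUSG00000059326, chr19:61223957-61228429, minus strand), the alpha chain that binds GM-CSF, ranged from 4.76 to 99.1 RPKM in naïve retinas with a mean of 22.1 ± 28.1 RPKM (SD, n = 10). The means were 12.3 ± 12.7 RPKM (SD, n = 6) at 4 h, 8.84 ± 2.53 RPKM (SD, n = 5) at 18 h and 16.8 ± 10.8 RPKM (SD, n = 7) at 2 weeks, and all groups overlapped. The log2 difference from naïve was -0.62 at 4 h and -0.72 at 18 h, and the 95% intervals, -1.66 to 0.41 and -1.82 to 0.38, included a fall beyond 2-fold as well as no change.

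The beta chain genes Csf2rb (ENSMUSG00000071713, chr15:78325752-78353847, plus strand) and Csf2rb2 (ENSMUSG00000071714, chr15:78282507-78305721, minus strand) lie next to each other and are near-identical copies. Their coding sequences agree at 95.2% of 2628 aligned bases, and 15.8% of all 75-base stretches of the Csf2rb coding sequence occur unchanged in Csf2rb2. Aligned coding windows within single exons (GENCODE M21, GRCm38) show how far a read can tell the genes apart. In the first, in exon 8 of Csf2rb (chr15:78341391-78341465) and exon 7 of Csf2rb2 (chr15:78291844-78291918, minus strand), no base differs.
Csf2rb: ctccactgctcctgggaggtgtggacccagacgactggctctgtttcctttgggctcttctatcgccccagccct
Csf2rb2: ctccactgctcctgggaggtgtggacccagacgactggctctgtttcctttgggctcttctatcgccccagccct
In the second, in exon 5 of Csf2rb (chr15:78338905-78338979) and exon 4 of Csf2rb2 (chr15:78294352-78294426, minus strand), 14 of 75 bases differ, more than in any other such window, and these are in capitals.
Csf2rb: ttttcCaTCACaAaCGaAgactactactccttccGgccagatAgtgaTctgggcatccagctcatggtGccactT
Csf2rb2: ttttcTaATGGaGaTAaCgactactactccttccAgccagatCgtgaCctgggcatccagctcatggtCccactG
Of 1494 windows inside 1 exon of both genes, 335 had no difference.

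The authors divided reads among transcripts by expectation maximisation. The share of Csf2rb in the pair varied strongly between retinas, and the cause was not tested. Csf2rb took 50.7% to 97.4% of the summed RPKM of both genes in 21 of 28 retinas, but 1.06% in naïve replicate 4, 1.32% in 18 h replicate 4 and 5.19% in 2-week replicate 3. In naïve replicate 3 it took 97.4%. Of these 4 retinas, naïve 3, naïve 4 and 18 h 4 were among those with fewer than 8000 genes at 1 RPKM or more. The coefficient of variation over 28 retinas was 76.9% for Csf2rb, 92.6% for Csf2rb2 and 52.8% for their sum. Since part of the sequence is shared, the separate values of each gene are given as uncertain.

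**Figure D3:**
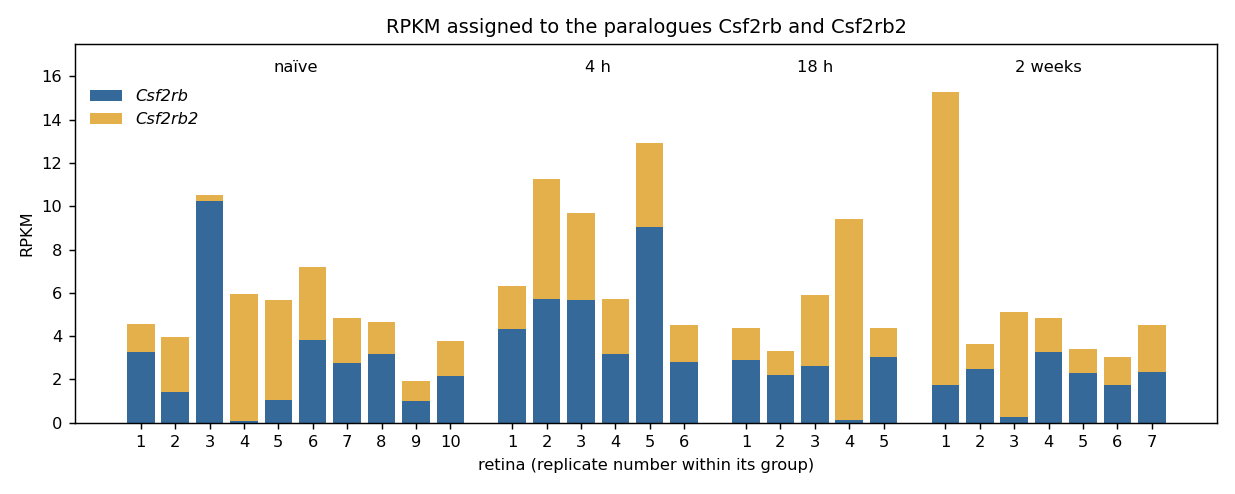
Stacked bars give the RPKM of Csf2rb and Csf2rb2 in each of the 28 retinas, numbered by replicate within its group on the horizontal axis. The sum ranges from 1.94 to 15.3 RPKM, and the share of Csf2rb falls to 1.06% in naïve replicate 4 and reaches 97.4% in naïve replicate 3.

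Csf2rb averaged 2.91 ± 2.85 RPKM (SD, n = 10) in naïve retinas and 5.13 ± 2.27 RPKM (SD, n = 6) at 4 h, where the retinas measured 4.34, 5.71, 5.67, 3.20, 9.05 and 2.80 RPKM. All 4 h values lay inside the naïve range. The difference of 0.85 on the log2 scale (SE 0.40) did not pass after adjustment (limma adjusted p = 0.22). Csf2rb2 averaged 2.40 ± 1.75 RPKM (SD, n = 10) in naïve retinas and 3.27 ± 1.47 RPKM (SD, n = 6) at 4 h, a log2 difference of 0.43 (SE 0.43, limma adjusted p = 0.63). Summed into 1 row, the pair differed from naïve by 0.58 at 4 h (95% interval -0.10 to 1.26), by 0.05 at 18 h (-0.67 to 0.77) and by 0.0010 at 2 weeks (-0.65 to 0.65), and none passed (limma adjusted p = 0.34, 0.96 and 1).

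Csf3r (ENSMUSG00000028859, chr4:126024550-126044440, plus strand), the receptor for G-CSF, was at 1 RPKM or more in 27 of 28 retinas. Naïve retinas ranged from 5.602 to 83.02 RPKM with a median of 16.9 RPKM. The retinas measured 36.8, 0.168, 10.6, 12.2, 7.92 and 17.1 RPKM at 4 h and 11.2, 3.44, 11.7, 2.86 and 10.2 RPKM at 18 h. Below all naïve retinas were 1 of 6 at 4 h and 2 of 5 at 18 h. The log2 difference was -0.75 (SE 0.57, limma adjusted p = 0.50) at 4 h and -1.12 (SE 0.61, limma adjusted p = 0.35) at 18 h, with a 95% interval at 18 h from -2.36 to 0.12. Without replicate 2 of the 4 h group, at 0.168 RPKM, the 4 h difference was -0.13. At 2 weeks the median was 20.1 RPKM, from 6.77 to 65.5 RPKM.

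Because Csf3r is known from neutrophils, neutrophil markers were examined beside it. Of 11 neutrophil markers listed, 10 were in the table, and their summed RPKM was no more than 0.200 in the naïve group, 0.264 in the 4 h group and 0.547 in the 2-week group. The means of Csf3r in these groups were 21.2, 14.1 and 25.1 RPKM. Ly6g, S100a8 and S100a9 were at 0 in all naïve retinas. At 18 h the summed markers were 1.08, 12.7, 17.1, 0 and 0.885 RPKM in replicates 1 to 5, and S100a8 and S100a9 reached an RPKM of 1 in 2 of 5 retinas. In the same order Csf3r measured 11.2, 3.44, 11.7, 2.86 and 10.2 RPKM. The part of neutrophil transcripts in the values of Csf3r was not tested.

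In naïve retinas the order of the mean levels was Csf1r, Csf2ra, Csf3r, Csf2rb, Csf2rb2, Csf1, Csf3 and Il34. The lowest Csf1r value, 137.6 RPKM, lay above the highest value of any other member. The ranges of the neighbours Csf2ra and Csf3r, with means of 22.1 and 21.2 RPKM, overlapped almost entirely, as did those of Csf2rb and Csf2rb2. Relative to the 13164 genes tested, the mean of Csf1 exceeded 9.54% of genes in the naïve group and 78.6% at 4 h, then 15.3% at 18 h and later 27.1% at 2 weeks. The mean of Csf1r exceeded 97.0% at 4 h and 98.7% at 2 weeks.

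Some receptors varied together from retina to retina and others did not. Over the 28 retinas, Pearson's r of log2(RPKM + 1) was 0.705 between Csf1r and Csf3r and 0.543 between Csf1r and Csf2ra, and 0.693 and 0.57 after the group means were subtracted. Csf2rb2 and Csf3r had r = -0.53, and -0.553 within groups, and Csf2rb and Csf2rb2 had r = -0.526 within groups. Csf1r had r = -0.0682 with Csf2rb and -0.204 with Csf2rb2. Each pair of values comes from the same library and the same total, so these are descriptions. Naïve replicate 1 had the highest naïve value of Csf1r, Csf2ra and Csf3r, 558.1, 99.1 and 83.0 RPKM, and also the lowest summed RPKM of all retinas.

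Among genes tested, those with the highest r with Csf1r over the 28 retinas were Slc2a5 (0.92), Man2b1 (0.905) and Adgrg1 (0.904). For Csf3r they were Ctsd (0.919), which encodes the lysosomal protease cathepsin D, Tmem119 (0.895), a microglial marker, and Unc93b1 (0.894), a chaperone of endosomal toll-like receptors. For Csf1 they were Gm45774 (0.815), Il23a (0.809), a subunit of interleukin-23, and Dusp5 (0.796), a phosphatase of the MAP kinase ERK. After the group means were subtracted, r with Csf1 was lower, at 0.623, 0.587 and 0.498 in the same order. For the genes named with Csf1r and Csf3r it then lay between 0.779 and 0.912. Csf2ra was followed by Vhl, Fbxw5 and Zbtb7a with r from 0.818 to 0.846. Csf2rb was followed by Mif4gd, Mir22hg and Tmem248 with r from 0.813 to 0.852, and Csf2rb2 by Gmps, Gm8258 and Mrpl30 with r from 0.766 to 0.798.

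The other genes of the pathway were described by 4 lists with 71 genes, of which 59 were tested. These lists were chosen with earlier results of these data known. Their shares of calls therefore describe the listed genes and do not test whether the pathway was engaged. At 4 h 20 of these 59 were called, 14 higher and 6 lower, or 33.9% against 8.08% of all genes, with a median log2 difference of 0.35 against -0.11 over all genes. At 18 h 3 were called, or 5.08% against 4.69%, and at 2 weeks none was. At 18 h against 4 h 15 were called, 3 higher and 12 lower, or 25.4% against 5.42% of all genes (2.92% higher and 2.51% lower).

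Signalling genes below the receptors, 33 in all, had 6 called higher and 2 lower at 4 h and 0 called at 18 h. Socs3, a feedback inhibitor of cytokine receptors including that of G-CSF, rose from a median of 0.237 RPKM (highest 15.9) to a median of 56.2 RPKM (highest 724) at 4 h (5.66 on the log2 scale, SE 0.59, limma adjusted p = 2.8e-08). Jak2, the kinase bound by the beta chain, rose from 2.68 to 12.7 RPKM (2.24, SE 0.52, limma adjusted p = 0.0037). The STAT5 genes moved in opposite directions: Stat5a rose from 0.450 to 3.16 RPKM and Stat5b fell from 2.62 to 0.612 RPKM, both named after their values were seen.

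The list of STAT5 and growth targets, 11 tested, had 4 called higher at 4 h and 2 higher at 18 h, with medians of 1.41 and 0.43. Id2, an inhibitor of helix-loop-helix factors, rose from 13.02 to 543.2 RPKM at 4 h (5.47, SE 0.54, limma adjusted p = 9.5e-09) and was still higher at 18 h at 73.9 RPKM (2.60, SE 0.58, limma adjusted p = 0.0050). Pim1, a survival kinase, rose by 2.29 and Ccnd2, a cyclin of early cell cycle, by 2.08 at 4 h. Cd36, a scavenger receptor, rose at 18 h from 11.3 to 61.4 RPKM (2.51, SE 0.73, limma adjusted p = 0.038).

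Of 13 transcription factors tested that are known to act on Csf1r or Csf3r, 4 rose and 3 fell at 4 h, and 1 fell at 18 h. Fli1, an ETS factor, fell by 2.39 at 4 h. Cebpb, a leucine zipper factor of inflammatory genes, rose from 55.9 ± 76.0 RPKM (SD, n = 10) to 481 ± 583 RPKM (SD, n = 6) at 4 h (2.94, SE 0.69, limma adjusted p = 0.0046). Spi1, which encodes PU.1, gave no call, with 46.8 RPKM in naïve retinas, 108 RPKM at 4 h and 80.6 RPKM at 18 h, and was named after its values were seen. Of 11 relatives of the family, such as ligands and receptors of KIT and FLT3, only Kitl and Flt3l passed the filter. Kitl, the ligand of KIT, fell from 3.07 to 0.139 RPKM at 4 h (-1.50, SE 0.46, limma adjusted p = 0.035) and was named after its values were seen.

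**Figure D4:**
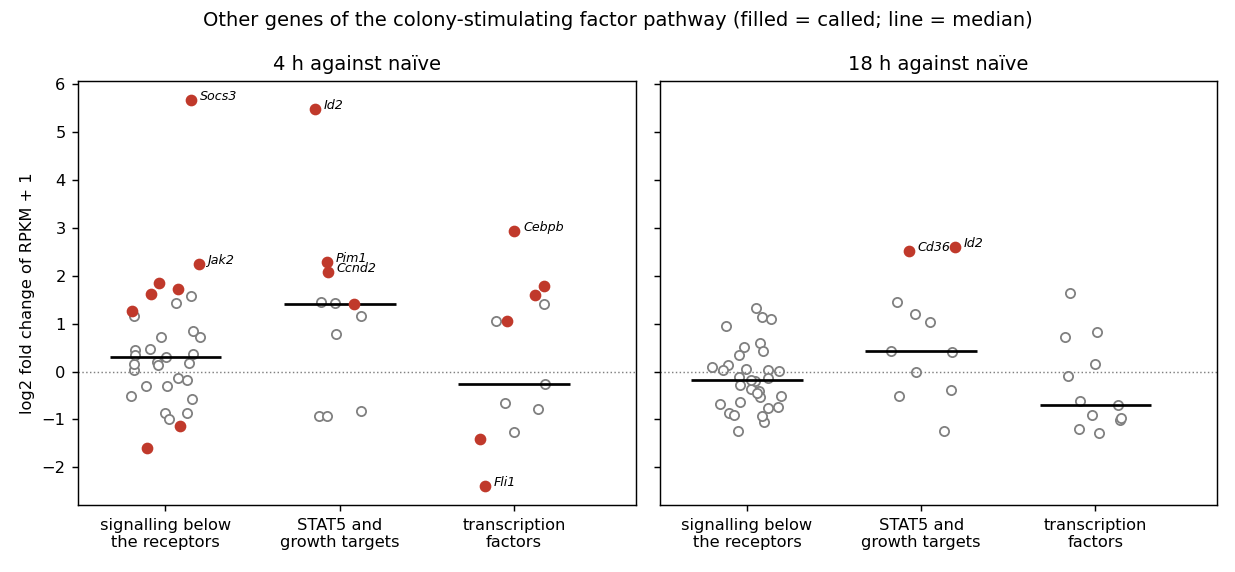
Each point is 1 tested gene of 3 pathway lists, at its log2 fold change of RPKM + 1 against naïve retinas at 4 h (left) and 18 h (right). Filled points are called, lines are medians of the full lists, and called genes with a change beyond 4-fold are named. At 4 h Socs3 and Id2 stand highest at 5.66 and 5.47, and at 18 h the filled points are Id2 and Cd36.

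The 4 h and 2-week differences were also compared between the experiments. None of the 6 tested members had a difference that depended on the experiment (limma interaction, adjusted p = 1 for all), where 0.0988% of all genes did at 4 h and 0% did at 2 weeks. The intervals were wide, and for Csf1 at 4 h the difference between experiments was 0.89 with a 95% interval from -1.20 to 2.98.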

How the data were processed

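mRNA of sorted microglia was amplified with SMART-Seq v4 and sequenced. The authors trimmed reads, aligned them to mm10 with STAR 2.5.3a and assigned them to Ensembl transcripts in Partek by expectation maximisation. The deposited values are RPKM, 1 per gene and retina, which the authors scaled for the length of transcripts and for library size, and the table states alignments per retina. The authors' own tables of differential expression hold p-values, ratios and fold changes from an ANOVA and were not used.

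Values were transformed to log2(RPKM + 1), a pseudocount of 1. A filter kept the 13164 of 40021 genes that reached 1 RPKM in 5 or more of the 28 retinas. A single model of the 4 groups was fitted with limma 3.58.1 (R 4.3.3, trend in the variance), with Benjamini-Hochberg adjustment over the kept genes. Calls needed a change of 2-fold or more and an adjusted p no higher than 0.05. Csf3 and Il34, below the filter, were tested by exact permutation (scipy 1.17.1). The scripts were checked on simulated data. Any pair of retinas had at most 1 identical value above 0.01 RPKM. Exact zeros and very low values can be products of the authors' estimation. Counting error could not be given, since the depth of a gene is not in RPKM. Read-worth figures divide 1 read by the alignments and the longest coding transcript.

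The members and lists were chosen with earlier results of these data known. Named genes were all 8 members, up to 8 called genes of the pathway lists per time point in order of the absolute log2 change, and the 3 genes with the highest r with each tested member. Of the listed transcription factors, 1 is counted but neither reported nor plotted here. Coordinates are those of GENCODE M21 on GRCm38, the build of mm10, and promoter sequence is from RefSeq on GRCm38.p6. Alternatives covered the pseudocount, filter, scaling, variance model, covariates, replicate block, each experiment alone, and each retina left out. The alternatives for 2 weeks against 18 h, and those that left out several retinas together, were chosen after seeing the data.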

Additional observations from a re-analysis of the deposited data

Results flagged for a closer look

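In 30 sets of values, 1 member in 1 group each, 14 had a single retina far from the others by Dixon's criterion at 95%, which chance meets in about 1 of 20 groups of normally distributed values. RPKM values are skewed, so this rate does not hold here, and in 3 of the 14 a sole value above 0 met the criterion by construction. In naïve retinas these were replicate 1 for Csf1r (558.1 RPKM, next 238.8), Csf2ra (99.06 RPKM, next 29.14) and Csf3r (83.02 RPKM, next 21.06), replicate 3 for Csf2rb (10.26 RPKM, next 3.828) and replicate 2 for Csf3 (2.003 RPKM, the others at 0). At 4 h they were replicate 1 for Csf2ra (37.71 RPKM, next 10.88), Csf3 (47.66 RPKM, next 7.151) and Il34 (0.9796 RPKM, next 0.1365), and replicate 5 for Csf1 (52.07 RPKM, next 14.86). At 18 h they were replicate 4 for Csf2rb2 (9.273 RPKM, next 3.28) and replicate 3 for Csf3 (1.244 RPKM) and Il34 (0.3167 RPKM), with the others at 0. At 2 weeks they were replicate 1 for Csf1 (6.657 RPKM, next 1.91) and Csf2rb2 (13.51 RPKM, next 4.871). The 3 retinas with the highest values of several members, replicate 1 of naïve, 4 h and 2 weeks, were left out together as a setting chosen after seeing the data, and Csf1 then differed from naïve by 2.30 at 4 h and Csf1r by -1.71 at 18 h (limma adjusted p = 0.0017 and 2.5e-04). Without the 4 retinas with fewer than 8000 genes, the same differences were 2.60 and -1.88 (limma adjusted p = 2.3e-04 and 0.0016).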

How the results depend on the processing

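Of the calls, Csf1r at 18 h against naïve (-2.03 to -1.71) and at 2 weeks against 18 h (2.01 to 2.31), and Csf1 at 4 h against naïve (1.84 to 2.61) and at 18 h against 4 h (-2.68 to -1.92), were kept whichever single retina was left out. At 4 h the number of members called was 0 with a pseudocount of 10, where Csf1 differed by 0.83, 0 with a filter at an RPKM of 5, which Csf1 did not pass, and 0 in experiment 1 alone. It was 2 with equal summed RPKM and with the replicate block, where Csf1r reached -1.13 and -1.05 (limma adjusted p = 0.025 and 0.042). The number at 18 h against naïve, and at 2 weeks against 18 h, was 0 in experiment 2 alone, which has 1 retina at 18 h, assumed to vary like the other groups. At 18 h against 4 h it was 0 with a pseudocount of 10, a filter at 5, and either experiment alone. With a pseudocount of 0.1 Csf1 rose by 4.02 at 4 h. The replicate numbers did not pair the retinas: deviations from group means of same-numbered retinas had a median r of 0.0352 over 34 pairs, against 0.00539 for 253 others, and the block changed no other call.

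Differences near 0, none of them called, changed sign. At 18 h against naïve Csf2rb2 was -0.0426 with the replicate block, -0.11 in experiment 2 alone, -0.0117 with equal sums and -0.19 without the retinas with few genes, Csf2rb was 0.36, 0.12 and 0.22 in experiment 2 alone, with quantile normalisation and without those retinas, and Csf1 was 0.0328 with quantile normalisation, 0.0326 without the 3 first retinas and 0.27 without those with few genes. At 2 weeks against naïve Csf3r was -0.13 in experiment 1 alone, Csf2ra 0.19 in experiment 2 alone, and Csf2rb2 -0.15 and -0.11 without the first retinas and without those with few genes. At 18 h against 4 h Csf2ra was 0.0112 in experiment 2 alone and 0.29 without the first retinas, where Csf3r was 0.0105. With single retinas left out, sign changes lay within -0.26 to 0.0781 for Csf1, -0.33 to 0.19 for Csf2rb and -0.18 to 0.39 for Csf2rb2 at 18 h; -0.31 to 0.21 for Csf2ra, -0.35 to 0.0249 for Csf2rb, -0.10 to 0.36 for Csf2rb2 and -0.0243 to 0.52 for Csf3r at 2 weeks; and -0.31 to 0.29 for Csf2ra and -0.99 to 0.0105 for Csf3r at 18 h against 4 h. The cause was not tested. The lowest values of Il34 above 0 can rest on a few reads.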
